A study of Mus musculus with 12 samples.

Results

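Cathepsins A, B, C, D, F, H, L, S and Z and legumain, 10 lysosomal proteases that macrophages express, were followed in bulk RNA-seq of mouse bone marrow derived macrophages from old and young animals. The members were the rows of the deposited count table whose gene ID maps to the symbols Ctsa, Ctsb, Ctsc, Ctsd, Ctsf, Ctsh, Ctsl, Ctss, Ctsz and Lgmn. Each symbol matched 1 row, which gave 10 of the 55401 gene IDs. There were 6 libraries from old mice, 12 months of age, and 6 from young mice, 8 weeks of age, all of a C57BL6 background with no engineered allele named. In both groups marrow cells were grown with M-CSF, the growth factor that drives macrophage differentiation, at 20 ng/mL and were ready for use on day 7. Biological replicate is the labels' word for each library, but whether each came from its own animal is not said, so p-values here measure the spread between libraries.

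Cathepsins are made as inactive proenzymes, tagged with mannose 6-phosphate in the Golgi and carried to endosomes and lysosomes, where the acid pH lets the propeptide be removed. Most are papain-like cysteine proteases, while cathepsin D is an aspartic protease, cathepsin A a serine carboxypeptidase and legumain a cysteine protease of another family that cuts after asparagine. In macrophages they digest engulfed material, trim antigen and invariant chain for MHC class II, and activate one another.

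None of the 10 genes differed between old and young macrophages past an adjusted p of 0.05. The log2 fold changes, old over young, lay between -0.15 for Ctsf and 0.18 for Ctss. They were above 0 for 4 members (Ctsb, Ctsc, Ctss, Lgmn) and below 0 for 6, and with library size alone as the scaling Ctsl crossed to 0.00 on the positive side, which made 5 and 5. Their median was -0.03, beside -0.01 over all 12620 genes tested, of which 47.5% were above 0. Leaving out 1 library moved the number above 0 to between 1 (without young 6) and 6 (without old 2, old 3 or young 5). Ctsb, Ctsd and Ctss were among the 10 most abundant transcripts of the cells per length. Among all genes tested 2 passed the adjusted threshold, Bmpr1a and Gdf3, both higher in old libraries, which is 0.0158% of genes against 0 of 10 members. That count was 5 without young 3 and 1 without young 4. At an unadjusted p under 0.05 the background was 5.47% of genes and again 0 of 10 members, the lowest member p being 0.17. These 690 genes became 315 without old 6, 364 without young 5, 438 without old 4 and 1612 without old 2. The old and young libraries did not overlap for 0.206% of genes and overlapped for each of the 10 members.

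The libraries held 19.3 to 22.4 M counts assigned to genes in the old group and 22.2 to 25.2 M in the young group, where 1 M is 1000000. The counting command in the file header sets no option for read pairs, and no source used here says whether reads were paired, so a count may stand for 1 mate rather than 1 fragment. Macrophage markers (Adgre1, Csf1r, Cd68, Lyz2 and 4 others) summed to 33749 to 42580 counts per 1000000 (CPM) of the library total in old libraries and 28174 to 44296 CPM in young libraries. Old 2, old 3 and young 6 had the highest mean log2 CPM of 20 cell cycle genes, 6.40, 5.78 and 7.08, against 4.16 to 5.41 in the other 9. Single genes of the list did not all set them apart, Mcm2 and Pcna being lower in old 3 than in old 1. Old 6 stood apart in B, T and NK cell markers, which summed to 19.5 CPM there, against 0.0462 to 0.436 CPM in the other old libraries and 0 to 0.307 CPM in the young. It also had the highest sum of osteoclast markers, 464 CPM, against 188 to 248 CPM in the other old libraries and 183 to 241 CPM in the young, with Calcr at 0 in every library. Most of that sum was 1 gene chosen after its values were seen, Atp6v0d2, a subunit of the vacuolar proton pump, at 334 CPM in old 6, 60.2 to 142 CPM in the other old libraries and 67.9 to 121 CPM in the young. The rest of the list summed to 130.0 CPM in old 6, against 106 to 129 CPM in the other old libraries and 88.6 to 129.6 CPM in the young. Young 5 had the highest sum of 16 interferon-stimulated genes, 4979 CPM, where the other 11 libraries lay between 1134 and 3504 CPM. In RNA from whole cultures, fewer cells of a type and less RNA per cell cannot be told apart.

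Levels of different genes were compared in transcripts per 1000000 (TPM), which divide counts by the summed length of annotated exons. Ctsb, which encodes cathepsin B, a cysteine protease that cuts both within proteins and at their carboxyl ends, had the highest mean TPM, 13992 ± 979 in old libraries and 13376 ± 1172 in young libraries (SD, n = 6 each). Ctsd followed with 12679 ± 1041 TPM in old and 13018 ± 1218 TPM in young libraries, and Ctss with 9137 ± 3008 and 7788 ± 849 TPM in old and young libraries. Among all genes of the table these 3 ranked 4, 6 and 10 by mean TPM. Ctsz came next at 3686 ± 132 TPM in old and 3862 ± 252 TPM in young libraries. Lgmn had 2057 ± 278 TPM in old and 1864 ± 352 TPM in young libraries, and Ctsa 1118 ± 98.7 and 1131 ± 105 TPM in old and young. The 4 least abundant members covered more than an order of magnitude. Ctsl had 340 ± 28.0 TPM in old and 332 ± 14.8 TPM in young libraries, and Ctsh 255 ± 46.0 and 252 ± 64.0 TPM in old and young. Ctsc had 82.8 ± 24.6 TPM in old and 77.3 ± 16.6 TPM in young libraries. Ctsf was the lowest at 23.5 ± 2.64 TPM in old and 25.2 ± 5.70 TPM in young libraries, and still held 601 to 1182 counts in a library.

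The order was steady from library to library except near the top. Ctsb was above Ctsd in 9 of 12 libraries, Ctsd above Ctss in 11, and Lgmn above Ctsa in 11, the exception to the last being young 6. Each of the other 6 steps of the order held in 12 of 12 libraries, although the ranges of Ctsl and Ctsh over the libraries overlapped. The step from Ctsb to Ctsd also depended on the exon model. Reads on exons shared by 2 genes were not counted, and 34.4% of the annotated exon length of Ctsd is shared with the overlapping gene model Gm49369, which was at 0 counts in every library. The share was 26.8% for Ctsl, 17.4% for Ctsa, 12.8% for Ctsb, 0.694% for Ctsz and none for the other 5. Per kilobase of unshared exon Ctsd stood above Ctsb in 12 of 12 libraries, with 6512 ± 550.2 CPM per kilobase in old and 6825 ± 630 CPM per kilobase in young libraries, against 5405 ± 343 and 5277 ± 456 CPM per kilobase for Ctsb in old and young.

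**Figure D1:**
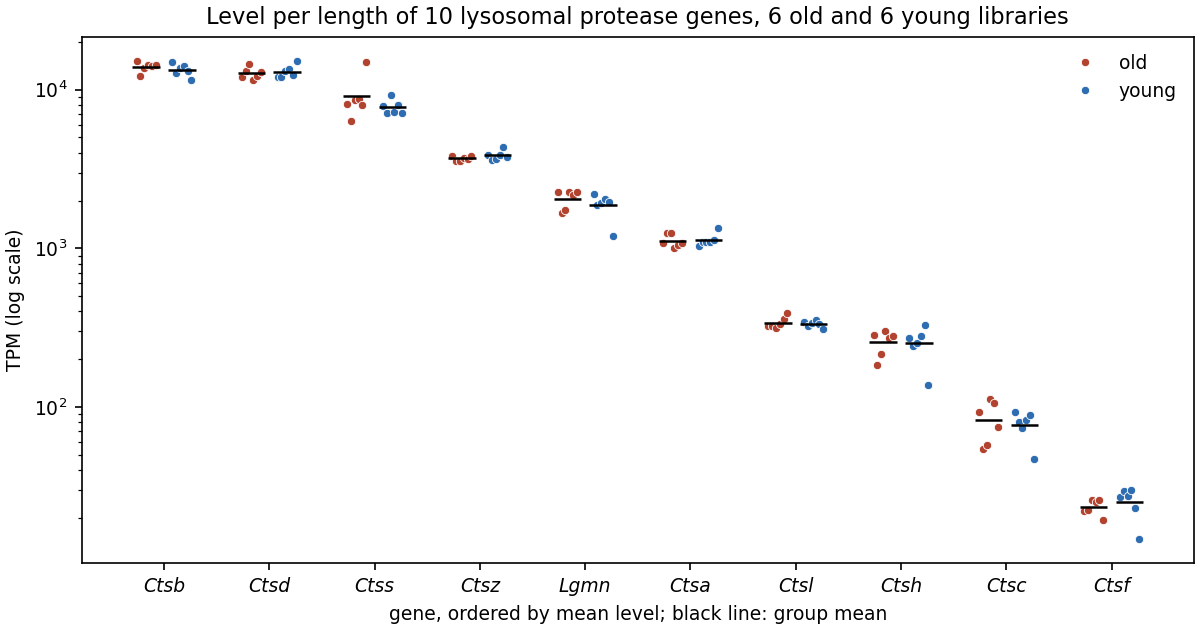
Level per length of each of the 10 protease genes in every library (TPM, log axis), genes ordered by mean level, with old libraries left of young ones; each point is 1 library and the black line is the group mean. The old and young points overlap for each gene, from Ctsb with means of 13992 TPM in old and 13376 TPM in young libraries down to Ctsf with 23.5 and 25.2 TPM in old and young.

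Levels of 1 gene between libraries are given below in CPM, with the library size scaled by edgeR's trimmed mean of M-values (TMM). Fold changes are old over young from edgeR's quasi-likelihood test, with p-values adjusted by Benjamini-Hochberg over the 12620 genes tested. Of the cysteine endopeptidases, cathepsin S (Ctss, chr3:95526786-95556403 in GRCm38) makes the last cuts in invariant chain in antigen-presenting cells and works at neutral pH. Its lowest, median and highest levels were 2853, 3800 and 6674 CPM in old libraries, against 3189, 3591 and 4242 CPM in young libraries. The highest value belonged to old 6 and the lowest to old 2, so that the old libraries enclosed the young ones. Ctss had the highest fold change of the 10 members, 1.13 (95% interval 0.881 to 1.45, log2 0.18, SE 0.17, adjusted p = 0.815). Without old 6 the log2 fold change was -0.01, and the remaining 5 old libraries averaged 3645 ± 465 CPM, against 3673 ± 462 CPM in the 6 young. The part of the B, T and NK cell transcripts of old 6 in its Ctss level was not tested.

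Cathepsin L (Ctsl, chr13:64359337-64370890) is a broad endopeptidase of lysosomes. It spanned 667, 732 and 823 CPM in old libraries (lowest, median, highest), against 659, 746 and 827 CPM in young libraries. The ranges nearly coincided, and the fold change was 0.989 (interval 0.883 to 1.11, adjusted p = 0.965). Cathepsin F (Ctsf, chr19:4855130-4860918), which can trim invariant chain in macrophages, spanned 31.7, 40.3 and 44.5 CPM in old libraries, against 24.3, 46.5 and 53.1 CPM in young libraries. Young 6 was the lowest of the 12 libraries, while the other 5 young libraries, at 44.9 to 53.1 CPM, were each above the highest old one. The gap was narrow, 44.9 against 44.5 CPM. How many of all genes separate in this way without young 6 was not counted, so the separation cannot be read as particular to Ctsf. With the 12 libraries the fold change was 0.898 (interval 0.712 to 1.13, log2 -0.15, adjusted p = 0.820). Leaving out young 6 made the log2 fold change -0.28 (SE 0.09, unadjusted p = 0.0068 in the edgeR fit), which did not pass the adjustment over all genes (adjusted p = 0.775). In that fit 737 of 12704 genes were under an unadjusted p of 0.05, and Ctsf was the only member among them. A low unadjusted p was therefore not particular to Ctsf.

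Cathepsin B (Ctsb, chr14:63122462-63145923) ran between 24495 and 31496 CPM in old libraries, with a median of 28749 CPM, against 23023 to 31162 CPM and a median of 29066 CPM in young libraries. Old 2 was lowest in its group and young 6 in the other. The fold change was 1.01 (interval 0.879 to 1.16, adjusted p = 0.973).

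Cathepsin Z, H and C take residues off the ends of proteins. Cathepsin Z (Ctsz, chr2:174427493-174439039), a carboxypeptidase that removes single residues, lay at 1674, 1807 and 1885 CPM in old libraries (lowest, median, highest), against 1752, 1852 and 2405 CPM in young libraries. The old libraries were close together, with a coefficient of variation of 4.82% against 12.8% in the young, where young 5 was alone above 1991 CPM. Its fold change of 0.919 (interval 0.813 to 1.04, log2 -0.12, adjusted p = 0.770) became -0.05 on the log2 scale without young 5, the library with the highest interferon-stimulated sum. The part of that signal in Ctsz was not tested. Cathepsin H (Ctsh, chr9:90054152-90076089), an aminopeptidase, lay at 272, 414 and 468 CPM in old libraries, against 202, 403 and 570.2 CPM in young libraries. Both ends of the range were young libraries, young 6 and young 5. The fold change was 0.970 (interval 0.712 to 1.32, adjusted p = 0.962).

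Cathepsin C (Ctsc, chr7:88278085-88310888) is a dipeptidyl peptidase that activates the granule serine proteases of leukocytes. It lay at 104, 163 and 226 CPM in old libraries, against 88.7, 162 and 200.3 CPM in young libraries. Old 2 and old 3 were the lowest of the old libraries and young 6 the lowest of the 12. With a fold change of 1.03 the interval ran from 0.733 to 1.46 (log2 SE 0.23, adjusted p = 0.963), so a change within those bounds could not be told from none. Relative to other genes Ctsc varied most of the 10: the SD of its log2 CPM over the 12 libraries exceeded that of 91.7% of the 9424 genes with a mean of at least 5 CPM.

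Cathepsin D (Ctsd, chr7:142375911-142388038), the main aspartic protease of lysosomes, lay at 9355, 9811 and 11078 CPM in old libraries, against 9485, 10771 and 11722 CPM in young libraries. The 3 highest libraries were young 6, young 5 and young 4, and the groups overlapped. Its fold change was 0.941 (interval 0.840 to 1.05, adjusted p = 0.799). Cathepsin A (Ctsa, chr2:164832873-164841032), the protective protein that holds neuraminidase and beta-galactosidase together, lay at 1645, 1718 and 1933 CPM in old libraries, against 1681, 1789 and 2068 CPM in young libraries. The libraries highest in their group were old 2 and young 6. The fold change was 0.955 (interval 0.853 to 1.07, adjusted p = 0.836). Legumain (Lgmn, chr12:102394084-102439813), which cleaves several cathepsins to their 2-chain forms, lay at 1272, 1714 and 1818 CPM in old libraries, against 905, 1585 and 1770 CPM in young libraries. Old 2, old 3 and young 6 were the 3 lowest libraries. The fold change was 1.06 (interval 0.849 to 1.33, log2 0.09, adjusted p = 0.891), and without young 6, whose absence left young libraries at 1630 ± 145 CPM (n = 5), the log2 fold change was -0.02.

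**Figure D2:**
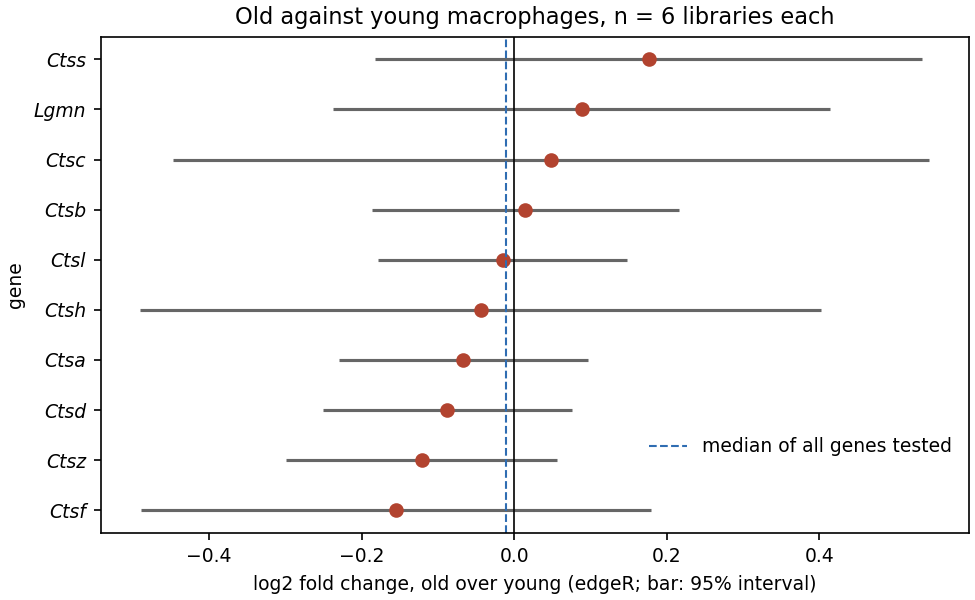
Log2 fold change, old over young, of each of the 10 genes from edgeR's quasi-likelihood fit (points) with its 95% interval (bars), beside the median over all genes tested. Each interval includes 0, and the widest belongs to Ctsc (-0.45 to 0.54).

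The spread between libraries was narrow for 5 members and wide for 5, a division made after their values were seen. Over the 12 libraries the highest level was 2.82 times the lowest for Ctsh, 2.54 for Ctsc, 2.34 for Ctss, 2.19 for Ctsf and 2.01 for Lgmn. For the other 5 it was 1.44 for Ctsz, 1.37 for Ctsb, 1.26 for Ctsa and Ctsl, and 1.25 for Ctsd. These 5 varied less than most genes. Their SD of log2 CPM exceeded that of 14.3% (Ctsd) to 29.5% (Ctsb) of the genes of at least 5 CPM, whereas for the wide set it exceeded 80.6% (Lgmn) to 91.7% (Ctsc). The wide range of Lgmn and of Ctss depended on 1 library each. Without young 6, Lgmn lay at 1272 to 1818 CPM in old and 1459 to 1770 CPM in young libraries. Without old 6, Ctss lay at 2853 to 4077 CPM in old and 3189 to 4242 CPM in young libraries. The range of Ctsf was also narrower without young 6, at 31.7 to 44.5 CPM in old and 44.9 to 53.1 CPM in young libraries.

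Young 6 was the lowest of the 12 libraries for 6 members (Ctsb, Ctsc, Ctsf, Ctsh, Ctsl, Lgmn) and the highest for Ctsa and Ctsd. Old 2 was the lowest of its group for 5 members (Ctsb, Ctsc, Ctsh, Ctss, Lgmn). How many of all genes were at such an extreme in young 6 or old 2 was not counted. The numbers of members therefore cannot be read as particular to the proteases. Ratios of counts within a library, which do not depend on the scaling of library size, set old 2, old 3 and young 6 beyond the other 9 libraries on 1 side for 21 of the 45 pairs of members, which share genes, and not for the other 24. How often pairs of other genes do so was not counted, so the 21 cannot be read as particular to the proteases. The examples here were chosen after their values were seen. The ratio of Ctsa to Lgmn was 1.52 in old 2, 1.44 in old 3 and 2.28 in young 6, and 0.905 to 1.18 in the other 9. Ctsd to Ctsb was 0.416 in old 2, 0.407 in old 3 and 0.509 in young 6, and 0.306 to 0.373 in the other 9. For Ctsa to Ctsc the values were 18.7, 17.5 and 23.3 in old 2, old 3 and young 6, and 7.28 to 12.2 in the others. For Ctsl to Ctsb there was no such gap, with old 3 at 0.0245 and the other 9 at 0.0228 to 0.0290. These 3 libraries are the ones with the highest cell cycle level. Young 6 and old 2 also had the lowest sums of macrophage markers, 28174 and 33749 CPM, while old 3, at 39613 CPM, lay among the other libraries. The part of cycling cells, or of the macrophage marker level, in the ratios was not tested. In old 6 it was Ctss that stood out, with a ratio to Ctsb of 0.235, where the other 11 libraries lay between 0.114 and 0.153.

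**Figure D3:**
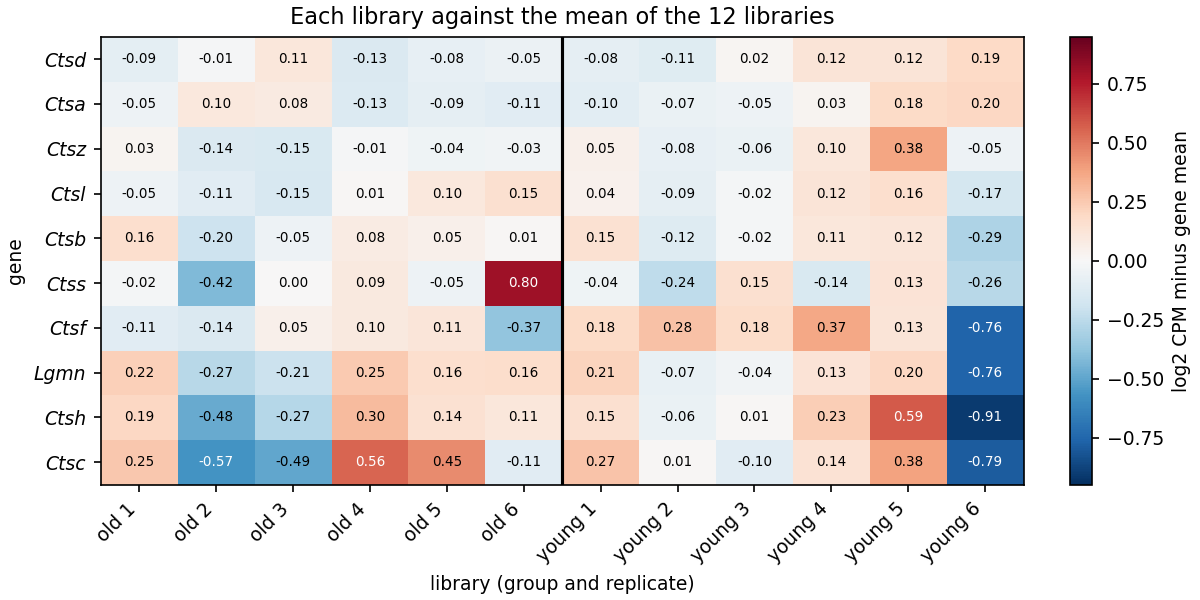
Log2 CPM of each of the 10 genes in each library minus the gene's mean over the 12 libraries (colour and printed value), with old libraries left of young ones. Young 6 is below the mean for Ctsb, Ctsc, Ctsf, Ctsh, Ctsl, Ctss, Ctsz and Lgmn and above it for Ctsa and Ctsd, and old 6 is high for Ctss.

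**Figure D4:**
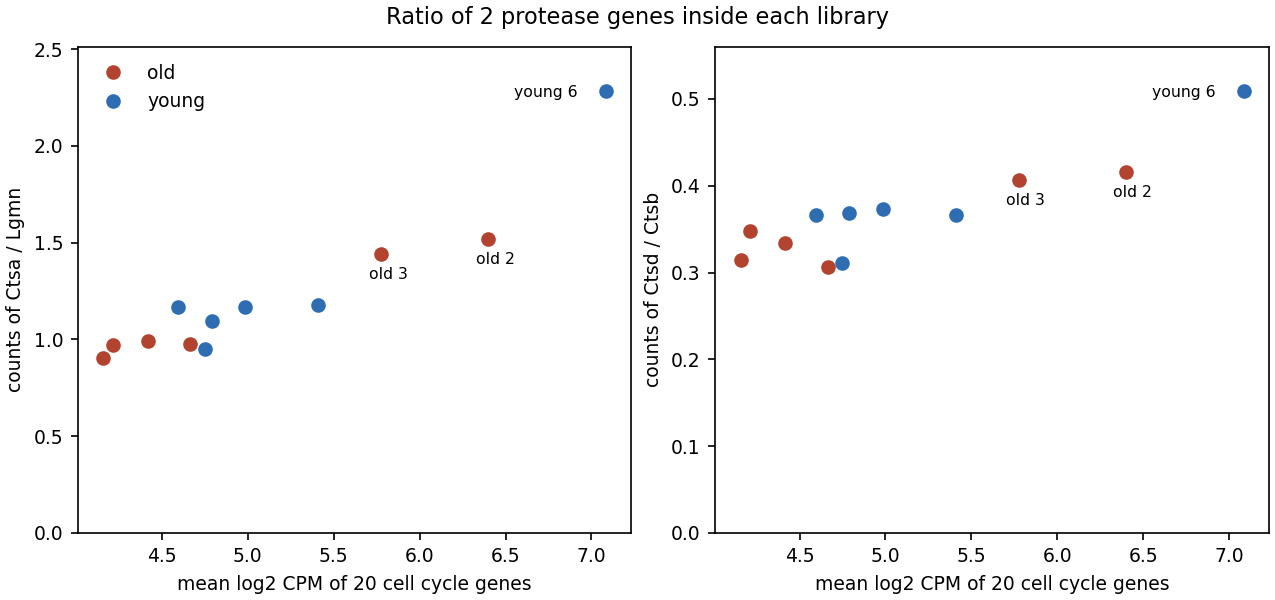
Ratio of counts of Ctsa to Lgmn (left panel) and of Ctsd to Ctsb (right panel) in each library, against the mean log2 CPM of 20 cell cycle genes; each point is 1 library, old or young by colour. Old 2, old 3 and young 6 have the 3 highest values of Ctsa to Lgmn (1.52, 1.44 and 2.28) and of Ctsd to Ctsb (0.416, 0.407 and 0.509).

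Together the 10 genes took 4.54 to 5.14% of all assigned counts in old libraries (mean 4.92% ± 0.219) and 4.56 to 5.08% in young libraries (mean 4.86% ± 0.236; SD, n = 6 each). The difference of 0.0653 percentage points was smaller than the spread within either group, and the ranges overlapped. Ctsb alone took 2.85% ± 0.181 of counts in old and 2.78% ± 0.240 in young libraries. The other 9 took 2.07% ± 0.138 in old and 2.07% ± 0.0884 in young libraries. Of the members' own counts Ctsb made up 57.9% ± 2.28 in old and 57.2% ± 2.62 in young libraries. Ctsd made up 20.5% ± 2.17 in old and 21.7% ± 2.67 in young libraries, and Ctss 8.40% ± 2.30 and 7.49% ± 0.697 in old and young. By TPM, which weighs short transcripts more, the 10 genes held 4.34% ± 0.379 of the total in old and 4.17% ± 0.157 in young libraries.

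**Figure D5:**
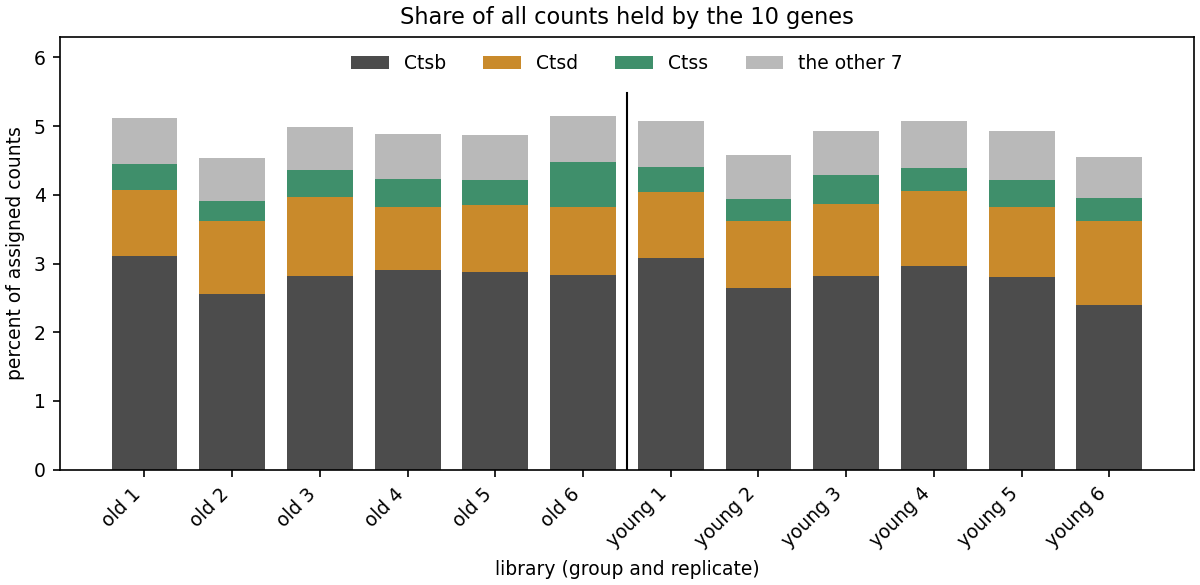
Share of all assigned counts held by the 10 genes in each library (percent, axis from 0, stacked as Ctsb, Ctsd, Ctss and the other 7), with old libraries left of young ones. The total is 4.54 to 5.14% in old libraries and 4.56 to 5.08% in young libraries, and Ctsb is the largest part in each.

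Promoter sequence was examined because lysosomal genes are known to carry the CACGTG core bound by TFEB and its relatives, and myeloid genes the GAGGAAGT element bound by PU.1. The RefSeq promoter table (GRCm38.p6), with windows of 250 bases before to 50 bases after a transcript start, held 10 windows for 8 members (Ctsa, Ctsc, Ctsd, Ctsf, Ctsl, Ctss, Ctsz and Lgmn). CACGTG, which reads the same on both strands, was found for 5 of them (Ctsa, Ctsd, Ctsf, Ctsl, Lgmn), in 5 of the 10 windows, and is in 7.15% of the 32851 windows of the table. Ctsa and Lgmn had 2 windows each, and the window at the 5' end of the counted gene model did not hold it. Ctsa and Ctsd each held 2 copies in 1 window, as 0.594% of windows do, and TCACGTGA, which contains CACGTG, was also found for Ctsa and Ctsd and is in 0.974% of windows. GAGGAAGT, searched on both strands, was found for Ctss and Ctsc and is in 3.20% of windows. The windows of Ctsa (chr2:164833523-164833792, plus strand) and Ctsd (chr7:142387808-142388077, minus strand) are shown from 250 bases before to 20 bases after the start, with CACGTG in capitals.
Ctsa: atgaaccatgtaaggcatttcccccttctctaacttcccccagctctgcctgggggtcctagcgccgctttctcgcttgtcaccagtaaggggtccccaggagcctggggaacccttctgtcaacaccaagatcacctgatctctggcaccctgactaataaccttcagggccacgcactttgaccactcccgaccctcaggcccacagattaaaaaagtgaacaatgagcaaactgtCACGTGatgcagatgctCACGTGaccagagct
Ctsd: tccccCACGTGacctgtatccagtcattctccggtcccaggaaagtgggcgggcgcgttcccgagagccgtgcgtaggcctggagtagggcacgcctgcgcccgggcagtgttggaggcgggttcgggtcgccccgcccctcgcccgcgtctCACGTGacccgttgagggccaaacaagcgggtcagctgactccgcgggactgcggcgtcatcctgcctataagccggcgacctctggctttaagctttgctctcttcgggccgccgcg
In the Ctsa window the copies begin at -12 and 6 relative to the start, and in the Ctsd window at -245 and -98. The windows of Ctss (chr3:95526536-95526805, plus strand) and Ctsc (chr7:88277835-88278104, plus strand) are shown likewise, with the GAGGAAGT match in capitals, which is on the opposite strand and so reads ACTTCCTC.
Ctss: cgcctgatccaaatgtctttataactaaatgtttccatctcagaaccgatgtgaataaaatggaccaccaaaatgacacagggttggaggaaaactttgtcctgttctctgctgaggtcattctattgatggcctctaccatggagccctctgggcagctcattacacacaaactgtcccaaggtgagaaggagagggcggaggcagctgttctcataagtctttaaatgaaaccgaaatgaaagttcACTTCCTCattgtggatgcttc
Ctsc: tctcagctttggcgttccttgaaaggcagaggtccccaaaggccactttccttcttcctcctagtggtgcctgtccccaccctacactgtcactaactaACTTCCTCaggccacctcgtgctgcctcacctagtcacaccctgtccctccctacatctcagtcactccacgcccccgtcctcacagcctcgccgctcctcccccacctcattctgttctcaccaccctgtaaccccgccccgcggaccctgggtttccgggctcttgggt
The match begins at -2 for Ctss and at -151 for Ctsc. Ctsa and Ctsd, with 2 copies of CACGTG, were among the members of narrow spread, as was Ctsl with 1 copy. Ctsf and Lgmn with 1 copy and Ctss and Ctsc with GAGGAAGT were among those of wide spread. Ctsz, also of narrow spread, held neither sequence, and Ctsb and Ctsh had no window. Whether either sequence goes with the spread was not tested. Of the other sequences searched on both strands, CATGTG was found for Ctsa, Ctss and Lgmn (14.2% of windows), TATAAA for Ctss and Lgmn (13.6%), CCAAT for Ctsf, Ctsz and Lgmn (37.4%) and GGGCGG for Ctsc, Ctsd, Ctsf, Ctss, Ctsz and Lgmn (35.7%). AGGAAGT (9.35%) and GAGGAA (28.3%), which lie within GAGGAAGT, were found for Ctss and Ctsc. TGACTCA (5.20% of windows) and TTTCACTT (1.6%) were in none of the members' windows.

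The genes around the proteases were read from lists of the same pathway. Of 14 other cathepsins 3 were abundant enough to test, none passed, and the 3 log2 fold changes were above 0 with a median of 0.16. With libraries left out in turn, an alternative chosen after seeing the data, 2 of the 3 were above 0 without old 6, where Ctsk was at -0.01, and 2 without young 6. Ctso, a cysteine cathepsin, had 60.5 ± 5.51 CPM in old and 51.7 ± 6.19 CPM in young libraries (edgeR adjusted p = 0.770), and Ctsk, the collagen-cutting cathepsin of osteoclasts, 11.5 ± 3.55 and 10.3 ± 3.42 CPM in old and young. Cts3, Cts6, Cts7, Cts8, Ctsj, Ctsll3, Ctsm, Ctsq and Ctsr were at 0 in every library, where 3 counts would be 0.134 to 0.155 CPM in old and 0.119 to 0.135 CPM in young libraries. Ctsw, the cathepsin of cytotoxic lymphocytes, chosen after its values were seen, had 8.17 CPM in old 6, up to 0.268 CPM in the other old libraries and up to 0.135 CPM in the young.

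Of 15 inhibitors 13 were in the table and 6 were tested, none of which passed, and the 6 log2 fold changes were below 0 with a median of -0.17, except 2 without young 5 and 1 without young 6. Cst3, which encodes the secreted cystatin C, had 1599 ± 93.6 CPM in old and 1640 ± 235 CPM in young libraries, and Cstb, the cytosolic cystatin B, 540 ± 50.4 and 601 ± 90.9 CPM in old and young. Of 8 partners and substrates 7 were tested, none passed, and 2 were above 0. Psap, the precursor of the saposins that cathepsin D cleaves, had 29779 ± 3577 CPM in old and 29884 ± 6908 CPM in young libraries. Grn, whose protein is cut into granulins, had 4226 ± 348 CPM in old and 4605 ± 648 CPM in young libraries. The 10 genes of mannose 6-phosphate tagging and sorting were tested, none passed, and 7 were above 0 with a median of 0.08. Without old 6 that became 5 above 0 with a median of 0.04, and without young 2 it became 6. M6pr, the cation-dependent receptor for the tag, had 335 ± 18.2 CPM in old and 331 ± 15.5 CPM in young libraries, and Gga1, an adaptor for its transport, 187 ± 15.7 and 202 ± 24.1 CPM in old and young. Of 4 regulators of lysosomal genes none passed and 3 were above 0, or 1 without young 6, with Tfe3 at 199 ± 12.0 CPM in old and 195 ± 19.7 CPM in young libraries and Tfeb at 96.0 ± 6.47 and 97.0 ± 14.7 CPM in old and young.

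Among 9414 other genes of at least 5 CPM, likeness to the members was measured as the root mean square difference between standardised log2 CPM profiles over the 12 libraries, whose median was 1.42. Nearest to the mean profile of the 10 were Ccl5 (0.292), Fcgr4 (0.295), Arf3 (0.311), Hpcal1 (0.314) and Pld3 (0.335). Nearest to Ctsb were Fam20c (0.220), Grb2 (0.288) and Stab2 (0.299). The values describe these 12 libraries and carry no test.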

How the data were processed

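Bulk RNA of 6 old and 6 young macrophage cultures was prepared with the Illumina TruSeq RNA kit v2, per the labels' protocols, and counted without strand. The authors deposited raw read counts per gene with each gene's exon length, made with featureCounts 1.6.0 on Ensembl release 100 gene models, per the file headers and the submitters' processing notes, which also name STAR, FastQC and mm10. The deposited length column sums each gene's annotated exons in bases and gave the TPM. Reads on exons of 2 genes and multi-mapping reads were not counted. Between 71.3 and 72.6% of alignment records, rather than of reads, were assigned, and symbols were found for 55141 of 55401 IDs. The rest was computed here: edgeR 4.0.16 (filterByExpr, TMM, robust quasi-likelihood test, old over young, no covariate), with DESeq2 1.42.0 and limma 3.58.1 voom as alternatives, in R 4.3.3 and Python 3.11.15. The genes tested held 99.9% of counts. Marker and pathway sums use CPM of the raw library total. No 2 libraries agreed within sampling noise (lowest chi-square per gene 5.04). The tests were also run on simulated counts with the same relative spread for all genes and independent libraries. Such counts do not cover libraries that shift many genes together. Named besides the members were the 2 most abundant genes per length of each pathway list, genes past the threshold, genes at 0 and the nearest profiles. Ctsw, Atp6v0d2, Mcm2, Pcna, Csf3r, Irf8, Clec10a and, for its level, Lyz2 were named after their values were seen. The members and lists were chosen with earlier results of these data known.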

Additional observations from a re-analysis of the deposited data

Results flagged for a closer look

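In 22 groups checked (the 10 genes and their summed share, in old and in young libraries), 4 held a library whose gap to its nearest neighbour, as a part of the group's range, exceeded Dixon's 95% critical value for 6 samples. Chance flags about 1 in 20 such groups, and the groups share libraries. Ctss was 6674 CPM in old 6 (gap 0.680 of the range), where the other old libraries lay between 2853 and 4077 CPM. Ctsf was 24.3 CPM in young 6 (0.715), with 44.9 to 53.1 CPM in the other young libraries. Lgmn was 905 CPM in young 6 (0.641), with 1459 to 1770 CPM in the other young libraries. Ctsz was 2405 CPM in young 5 (0.634), with 1752 to 1991 CPM in the other young libraries.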

How the results depend on the processing

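The 10 log2 fold changes were recomputed under 23 other settings, 12 of which left out 1 library. No member passed the threshold in any of the 230 resulting values, the lowest adjusted p being 0.185, for Ctsf without old 2, old 3 and young 6 together. In that edgeR fit 2302 of 12744 genes were under an unadjusted p of 0.05, against 690 of 12620 with all libraries, so the low value was not particular to Ctsf. The sign turned in 19 of the 230 values. Outside the single left-out libraries it turned for Ctsl with library size alone (0.0049) and without the 3 libraries (0.010), and after the cell cycle level was added as a covariate for Ctsb (-0.028) and Ctsc (-0.10). Leaving out the 3 libraries and the covariate were chosen after seeing the data. Over the left-out libraries Ctsb ranged from -0.035 to 0.055, Ctsc from -0.070 to 0.15, Ctsh from -0.18 to 0.087, Ctsl from -0.047 to 0.016, Ctss from -0.0092 to 0.27 and Lgmn from -0.021 to 0.15. The genes past the threshold numbered 4 without a filter on low counts, 11 with DESeq2, 4 with the replicate block and 5 with the cell cycle covariate, against 2. They numbered 1 to 5 over the left-out libraries, with 1 without young 4 and 5 without young 3. Replicate numbers were not taken as pairs: deviations of same-numbered libraries correlated at -0.26 to 0.65, and 2 of 6 old libraries correlated best with their own number. The share of counts differed by 0.00485 to 0.143 percentage points over the left-out libraries. Where a setting moved a value, the cause was not tested. The spread between libraries limits what can be detected: the SE of the members' log2 fold changes was 0.08 to 0.23.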

Other observations

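Genes of other marrow cell types were low beside the macrophage markers, and none of those tested passed the threshold (edgeR, lowest adjusted p = 0.770 in each list). Markers of neutrophils and their precursors summed to 102 to 215 CPM in old and 50.5 to 195 CPM in young libraries, and the 5 of 10 tested had log2 fold changes above 0 with a median of 0.45 (4 to 5 above 0 and medians of 0.19 to 0.67 with libraries left out in turn, here and below chosen after seeing the data). Monocyte markers summed to 348 to 513 CPM in old and 206 to 508 CPM in young libraries, with 5 of 7 above 0 and a median of 0.28 (0.025 without old 6 to 0.44 without old 3). Dendritic cell markers summed to 76.0 to 257 CPM in old and 21.7 to 277 CPM in young libraries, with 0 of 4 tested above 0, or 2 without young 5. Most of the neutrophil, monocyte and dendritic sums was 1 gene each, named after its values were seen. Csf3r had 136 ± 35.3 CPM in old and 121 ± 46.2 CPM in young libraries (TMM-scaled). Irf8 had 337 ± 46.3 and 342 ± 90.5 CPM, and Clec10a 155 ± 89.1 and 177 ± 95.5 CPM, in old and young. Most of the macrophage sum was likewise 1 gene, Lyz2, with 30260 ± 3209 CPM in old and 30704 ± 5454 CPM in young libraries (TMM-scaled). Stromal and endothelial markers summed to 1.36 to 3.34 CPM in old and 0.759 to 3.16 CPM in young libraries, with Col3a1 at 0 in each library. Of the 20 cell cycle genes 0 were above 0 (median -0.31), but 19 were without young 6 (median 0.34). Of the 16 interferon-stimulated genes 3 were above 0 (median -0.18), but 13 were without young 5 (median 0.14), 8 without old 2, 6 without old 3, 1 without old 6, and 0 without old 4, old 5, young 2 or young 6. None of these genes passed the threshold. The part of any of these in the protease levels was not tested.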
